A study of Rattus norvegicus with 10 samples.

Results

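The synaptic vesicle release machinery was followed here through 9 genes, Snap25, Stx1a, Vamp2, Syt1, Cplx1, Cplx2, Syp, Sv2a and Syn1, which were taken by name from the 22081 genes of the deposited table. The samples were 5 rupture-prone intracranial aneurysm lesions (aneurysm 4 to 8) and 5 samples of the remaining circle of Willis (control 4 to 8), and the comparison asked which transcripts differed between the lesion and the arteries left around it. All animals were wild-type (WT) female Sprague–Dawley rats that were 10 weeks old at surgery. According to the paper, both tissues were taken from the same animal, so that the groups are not separate sets of rats. No source ties a sample number to an animal, and the samples were not compared as pairs in the main test. Every animal had undergone bilateral ovariectomy and ligation of the left carotid, the right external carotid, the right pterygopalatine and the left renal arteries. Each had also been fed a high-salt diet with 3-aminopropionitrile, an inhibitor of lysyl oxidase, and tissue was taken on day 63 after surgery. The controls were therefore arteries of operated and treated rats and not of untouched ones, and both tissues were whole homogenates in which fewer cells of a type and less RNA per cell cannot be told apart.

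At a nerve terminal, syntaxin 1 and SNAP-25 on the plasma membrane and VAMP2 on the vesicle coil into a SNARE complex that draws both membranes together. Synaptotagmin 1 senses the calcium that triggers fusion, complexins bind the assembled SNAREs, and synaptophysin, SV2A and synapsin 1 sit in or on the vesicle membrane. In cerebral arteries the known carriers of such vesicles are perivascular nerve fibres, while the same genes are expressed most strongly by neurons of the brain.

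Total gene reads, which are the sum of the reads in exons and in introns of a gene, ranged from 4513515 to 7352626 in the aneurysms and from 3017269 to 5692715 in the controls. Levels are given as CPM, the counts after scaling to a common library size by TMM, and aneurysm 8 stood apart with a scaling factor of 0.282 (the other 9 samples ranged from 0.759 to 1.57) and with 743 genes at 10 or more exon reads, the fewest of all 10 samples. The labelled tissue was checked on smooth muscle genes. Myh11, smooth muscle myosin, had 1128 to 4462 gene reads across the controls and 482 to 3862 across the aneurysms, whereas Acta2, smooth muscle actin, had 36 to 305 in the controls and 416, 1957, 1259, 470 and 0 in aneurysms 4 to 8.

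Counted together, the 9 genes had 381 to 2093 gene reads in an aneurysm (median 849) and 1175 to 2052 in a control (median 1792), so that the groups overlapped. Of the 9 genes, 7 had enough gene reads for the test and Stx1a and Syp did not. In edgeR's quasi-likelihood test on gene reads, 0 of the 7 passed a Benjamini-Hochberg adjusted p of 0.05, a threshold that 0.158% of all 7615 genes tested passed. At an unadjusted p under 0.05, 2 of the 7 were lower in the aneurysms (Snap25 and Syt1), against 2.43% of all genes tested, and DESeq2 placed the same 2 genes under an adjusted p of 0.05, which it did for 1.71% of all genes tested. The log2 fold change (aneurysm against control) was below 0 for 5 of the 7 genes and for 45.8% of all genes tested. The 9 genes were chosen with earlier results of these data known, so that these counts are no independent support. The plot of CPM by sample gives each gene's values.

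**Figure D1:**
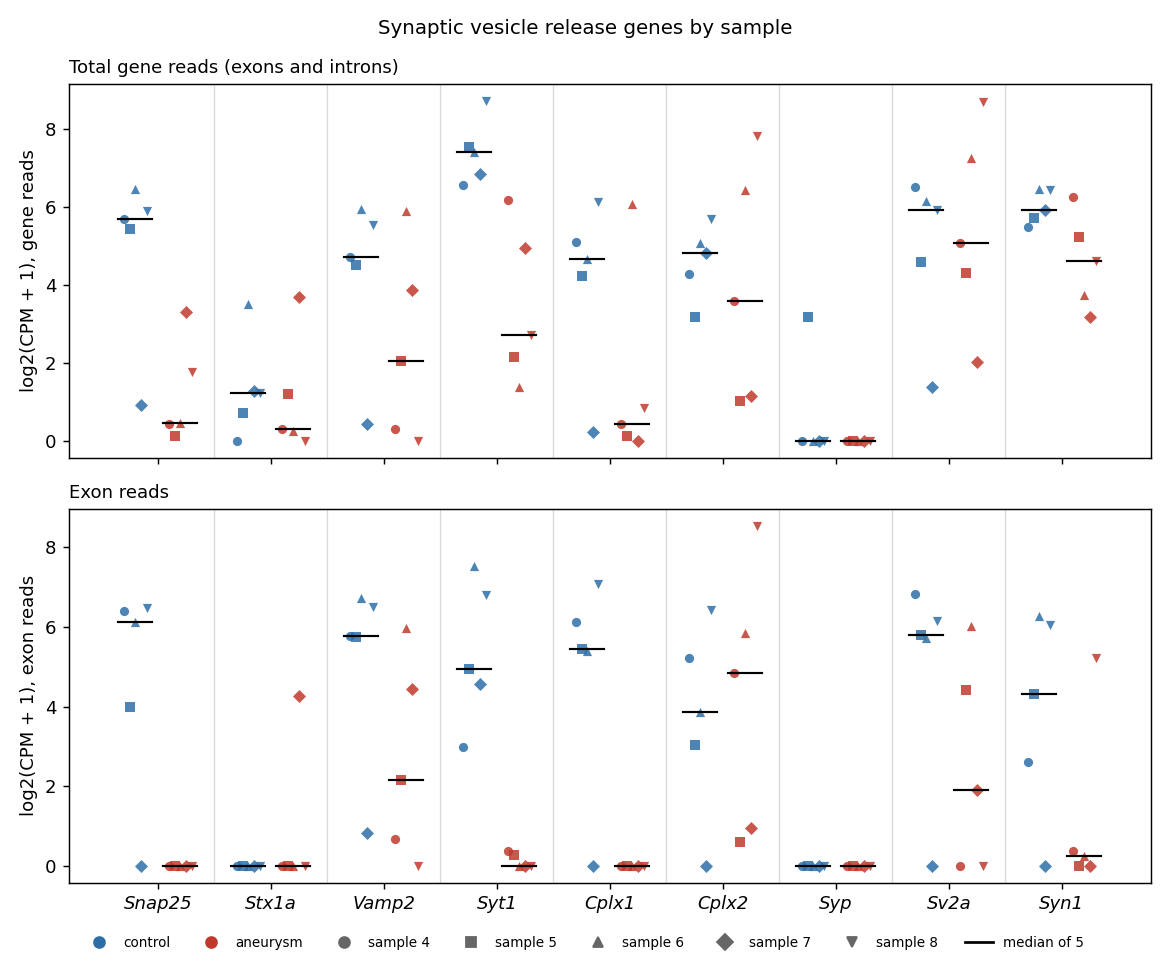
Level of the 9 genes in each sample, as log2(CPM + 1) with TMM-scaled CPM on the vertical axis, for total gene reads (upper panel) and exon reads (lower panel). Blue points are controls, red points are aneurysms, the marker shape is the sample number and black bars are medians of 5 samples; Syt1 is the 1 gene whose groups do not overlap in either panel, and control 7 lies near 0 for most genes in the lower panel.

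The plasma membrane SNARE gene Snap25 (ENSRNOG00000006037, chr3:129599352-129788400 in Rnor6) had 291, 200, 304, 5 and 133 gene reads in controls 4 to 8 and 3, 1, 2, 44 and 3 in aneurysms 4 to 8. Control 7 thus lay with the aneurysms and aneurysm 7 above it, and in reads the groups overlapped at these 2 samples. After scaling, aneurysm 8 (2.37 CPM) also lay above control 7 (0.882 CPM). In CPM the means were 48.2 ± 31.5 (SD, n = 5) in the controls and 2.41 ± 3.73 (SD, n = 5) in the aneurysms. The fitted log2 fold change was -4.32 (standard error 1.57, edgeR adjusted p = 0.545). The exact permutation test of the ranks gave a two-sided p of 0.0317 (0.524 after adjustment over all genes tested).

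The exon reads of Snap25 were more sharply divided. They were 229, 29, 137, 0 and 101 in controls 4 to 8 and 0 in each of the 5 aneurysms. Over the group, 0 reads in the aneurysms against 496 in the controls amounted to an at least 355-fold lower level, taking 3 reads over the group as the most that a count of 0 allows. This bound covers counting error alone and takes reads as independent of each other, which was not tested. The exact permutation test of the ranks, in which control 7 tied with the aneurysms, gave a two-sided p of 0.0476 with no adjustment over genes, since 4 samples with reads were too few for the low-count filter. All 53 aneurysm reads of Snap25 were intron reads, 44 of them in aneurysm 7, whereas the controls had 437 intron reads. Of the reads that spanned exon junctions, 87 were found, all in control 4.

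Stx1a (chr12:24682040-24710019), which encodes syntaxin 1A, the other plasma membrane SNARE, was barely detected in either group. Its gene reads were 0, 3, 36, 8 and 3 in controls 4 to 8 and 2, 14, 1, 59 and 0 in aneurysms 4 to 8, with means of 2.76 ± 4.31 and 2.72 ± 5.16 CPM (SD, n = 5 each). Every control read lay in an intron, and the 59 exon reads of the gene all came from aneurysm 7. The high samples were control 6 and aneurysm 7, and neither group lay above the other.

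Vamp2 (chr10:55675574-55679450), the vesicle SNARE gene, had 147, 103, 211, 2 and 103 reads in controls 4 to 8 and 2, 34, 326, 68 and 0 in aneurysms 4 to 8. All of these were exon reads, and the gene is also the shortest of the 9 at 3.88 kb from start to end. The highest count of all 10 samples was that of aneurysm 6, so that the groups overlapped widely and the log2 fold change of -1.02 on gene reads (standard error 1.51, edgeR adjusted p = 0.999) was smaller than its error. Without aneurysm 6 it was -2.85 (edgeR adjusted p = 0.989).

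The calcium sensor gene Syt1 (ENSRNOG00000006426, chr7:50084059-50638798) was the release gene with the clearest separation between the groups. It had 541, 874, 586, 653 and 955 gene reads in controls 4 to 8 and 609, 37, 9, 149 and 7 in aneurysms 4 to 8. After scaling the controls ranged from 94.0 to 425 CPM and the aneurysms from 1.62 to 71.4 CPM, so that each aneurysm lay below every control and aneurysm 4 came nearest to them. The log2 fold change was -3.13 (standard error 0.94, edgeR adjusted p = 0.322), and the exact permutation test of the ranks gave 0.00794, the smallest two-sided p that 5 against 5 samples allow (0.390 after adjustment over all genes tested). Of the 9 genes, Syt1 was the 1 whose groups did not overlap in this way, a pattern that 1.54% of all genes tested showed. With DESeq2 in place of edgeR, the adjusted p of Syt1 was 0.0442 and that of Snap25 was 0.0496, and the adjusted p of Syt1 ranged from 0.0442 to 0.986 over all alternatives on gene reads.

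In exons alone, Syt1 had 19, 58, 366, 58 and 127 reads in controls 4 to 8 and 1, 2, 0, 0 and 0 in aneurysms 4 to 8. Control 7 lay within the range of the other controls, and the groups did not overlap, as for 1.35% of the genes tested on exon reads. With so few aneurysm reads, Syt1 passed the low-count filter on exon reads through the controls alone. Its lack of overlap there is therefore no independent support. The sums of 628 and 3 reads gave a ratio of controls to aneurysms of 450 after scaling (95% counting interval 153 to 2188), and the log2 fold change was -8.84 (standard error 2.55, edgeR adjusted p = 0.0743). Of the reads that spanned exon junctions, 98 were found, all in control 6. In introns, Syt1 had 522, 816, 220, 595 and 828 reads in controls 4 to 8 and 608, 35, 9, 149 and 7 in aneurysms 4 to 8. The log2 fold change of the intron reads was -2.87 (standard error 0.90, edgeR adjusted p = 0.526), with no overlap between the groups in CPM, as for 1.74% of the genes tested on intron reads. Aneurysm 4 therefore held many reads counted to Syt1, nearly all of them outside the annotated exons. Uniquely mapped were 351 of its 609 gene reads, against 459 of 541, 840 of 874, 581 of 586, 591 of 653 and 931 of 955 in controls 4 to 8.

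The complexin paralogs Cplx1 and Cplx2, whose products bind the SNARE complex before calcium enters, are described side by side. Cplx1 (chr14:2194932-2226598) had 191, 84, 82, 0 and 153 exon reads in controls 4 to 8 and 0 in each aneurysm. As with Snap25, control 7 was the control without exon reads. The sum of 510 control reads against 0 made the aneurysm level at least 366-fold lower, with the same floor of 3 reads over the group, and the exact permutation test of the ranks gave a two-sided p of 0.0476 with no adjustment over genes. This floor also covers counting error alone and takes reads as independent, and 0 reads of Cplx1 spanned an exon junction in any sample.

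Gene reads of Cplx1 showed another picture, since aneurysm 6 had 367 intron reads of the gene while the other 4 aneurysms had 0 to 3 and the controls 0 to 2. Its log2 fold change on gene reads was -1.09 (standard error 1.68, edgeR adjusted p = 0.999), and -6.70 (edgeR adjusted p = 0.395) when aneurysm 6 was left out.

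Cplx2 (chr17:10756284-10818835) had 100, 14, 27, 0 and 98 exon reads in controls 4 to 8 and 92, 5, 299, 3 and 278 in aneurysms 4 to 8. Aneurysms 6 and 8 were the highest samples, aneurysms 5 and 7 were near the bottom, and the groups overlapped. Its log2 fold change was 1.24 on gene reads (standard error 1.17, edgeR adjusted p = 0.999) and 1.68 on exon reads (standard error 1.49, edgeR adjusted p = 1.0), and both turned negative without aneurysm 8, to -0.13 and -0.37, so that no direction can be given. No test of the difference between both complexins was run.

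The 5′ ends of the genes were examined because Syt1 and Cplx1 had almost no exon reads in the aneurysms while Cplx2 had them in all 5. RefSeq promoter windows (GRCr8, 250 bases before to 50 after the start) were given for 8 of the 9 genes, all but Snap25. The GC box, GGGCGG on either strand, was in 7 of these 8 windows (all except Sv2a) and in 33.1% of all 33469 windows, which is a description of the letters and not of a bound factor. The full cAMP response element TGACGTCA was in the window of Syn1 and in 1.83% of all windows, and the TATAAA sequence was in none of the 8 windows and in 14.2% of all. The CCAAT sequence was in 2 of the 8 windows (Stx1a and Cplx2) and in 37.5% of all. The windows of Syt1 (chr7:46244164-46244463, minus strand), Cplx1 (chr14:1328823-1329122, plus strand) and Cplx2 (chr17:10236704-10237003, minus strand) are shown 5′ to 3′ along the gene, with GC boxes in capitals, so that both complexins can be set beside the calcium sensor.
Syt1: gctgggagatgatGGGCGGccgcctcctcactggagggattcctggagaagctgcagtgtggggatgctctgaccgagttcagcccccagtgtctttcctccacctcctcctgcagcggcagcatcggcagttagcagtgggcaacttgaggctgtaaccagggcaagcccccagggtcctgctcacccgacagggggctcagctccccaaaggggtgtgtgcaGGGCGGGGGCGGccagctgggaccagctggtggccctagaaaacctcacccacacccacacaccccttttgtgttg
Cplx1: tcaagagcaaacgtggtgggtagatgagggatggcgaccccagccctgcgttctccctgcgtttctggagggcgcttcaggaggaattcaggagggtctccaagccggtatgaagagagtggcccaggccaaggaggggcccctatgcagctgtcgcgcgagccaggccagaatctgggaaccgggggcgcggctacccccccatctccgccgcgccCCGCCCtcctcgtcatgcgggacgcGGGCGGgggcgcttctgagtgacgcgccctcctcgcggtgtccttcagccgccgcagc
Cplx2: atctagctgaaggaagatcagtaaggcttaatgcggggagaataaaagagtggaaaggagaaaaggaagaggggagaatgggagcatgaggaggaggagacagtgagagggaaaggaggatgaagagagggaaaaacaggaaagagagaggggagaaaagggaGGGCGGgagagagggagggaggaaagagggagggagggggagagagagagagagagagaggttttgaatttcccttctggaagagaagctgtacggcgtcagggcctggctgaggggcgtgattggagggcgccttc
The Syt1 window held 3 GC boxes with 64.3% G and C, the Cplx1 window 2 with 68.7%, and the Cplx2 window, a purine-rich stretch, 1 with 54.0%, where the median of all windows was 51.7%.

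Among the vesicle membrane genes, Syp (chrX:15695565-15707436), which encodes the abundant vesicle protein synaptophysin, had 38 gene reads in control 5 and 0 in the other 9 samples. All 38 lay in introns and no sample had an exon read of Syp. The gene was therefore not measurable at this depth in either tissue.

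Sv2a (chr2:198321141-198336913), which encodes a transporter-like glycoprotein of the vesicle, had 525, 109, 245, 9 and 135 gene reads in controls 4 to 8 and 280, 203, 842, 15 and 520 in aneurysms 4 to 8. The groups overlapped, with control 7 and aneurysm 7 at the bottom and aneurysm 6 at the top in reads. Because of its low scaling factor, aneurysm 8 had the highest level, 411 CPM. The log2 fold change was 1.32 on gene reads (standard error 1.02), 2.42 on intron reads (standard error 1.21) and -1.72 on exon reads (standard error 1.80), with edgeR adjusted p of 0.999, 0.910 and 1.0. Without aneurysm 8 the value on gene reads was 0.08, and without aneurysm 6 that on exon reads was -3.25. Its exon reads were 311, 107, 103, 0 and 80 in controls 4 to 8 and 0, 200, 337, 9 and 0 in aneurysms 4 to 8, so that aneurysms 4 and 8 had intron reads of the gene and 0 exon reads.

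Syn1 (chrX:1321314-1379198), which encodes the vesicle-tethering phosphoprotein synapsin 1, had 251, 243, 304, 341 and 194 gene reads in controls 4 to 8 and 649, 394, 69, 40 and 30 in aneurysms 4 to 8. The controls were the more even group (43.6 to 87.8 CPM, against 8.07 to 76.1 CPM in the aneurysms), and the log2 fold change was -1.07 (standard error 0.93, edgeR adjusted p = 0.999). Exon reads were 14, 37, 153, 0 and 74 in controls 4 to 8 and 1, 0, 1, 0 and 27 in aneurysms 4 to 8. The gene is the 1 release gene whose span in the table overlaps others, namely Araf, LOC102555453 and Timp1, the last of which had 879 gene reads in aneurysm 5 and 124 in aneurysm 4. The table gives no strand, so that intron reads of Syn1 are uncertain where those genes lie.

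**Figure D2:**
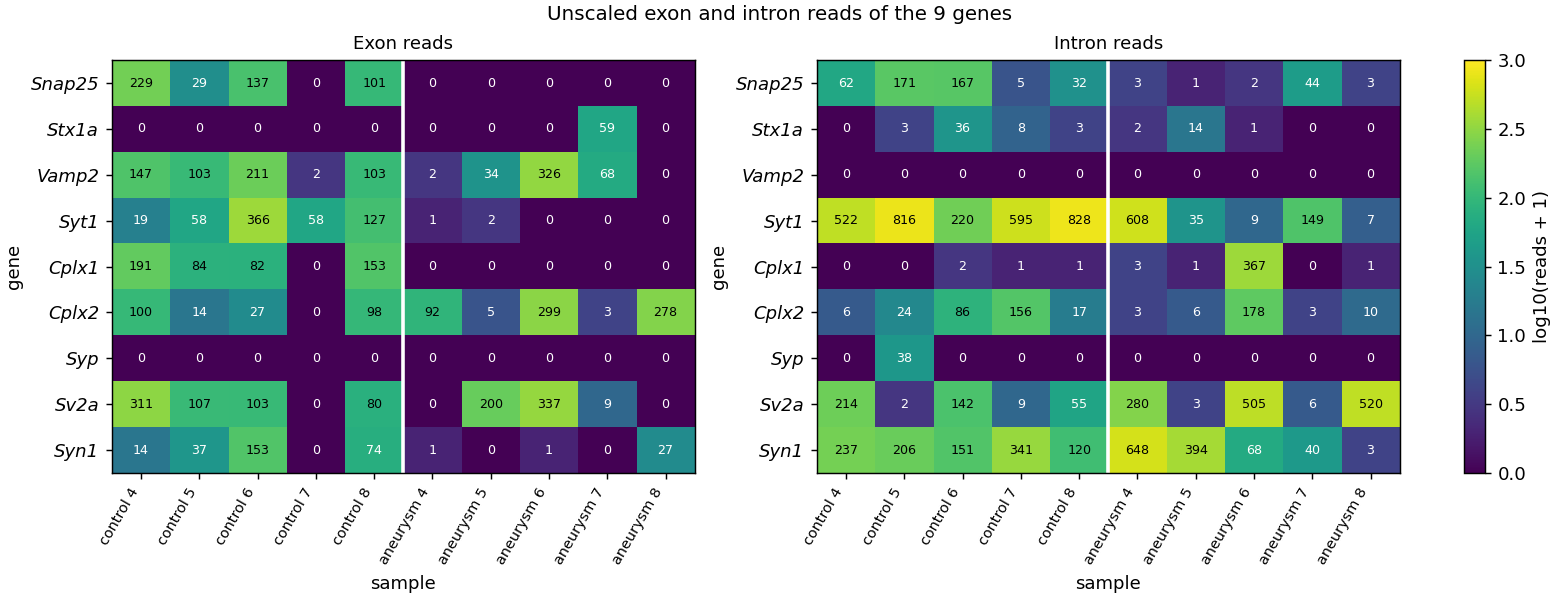
Unscaled exon reads (left) and intron reads (right) of the 9 genes in each of the 10 samples, with the read count printed in each cell and colour giving log10(reads + 1). The white line divides controls from aneurysms; the exon rows of Snap25 and Cplx1 hold 0 in all 5 aneurysms and in control 7, while Cplx2 and Sv2a hold reads in both groups.

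**Figure D3:**
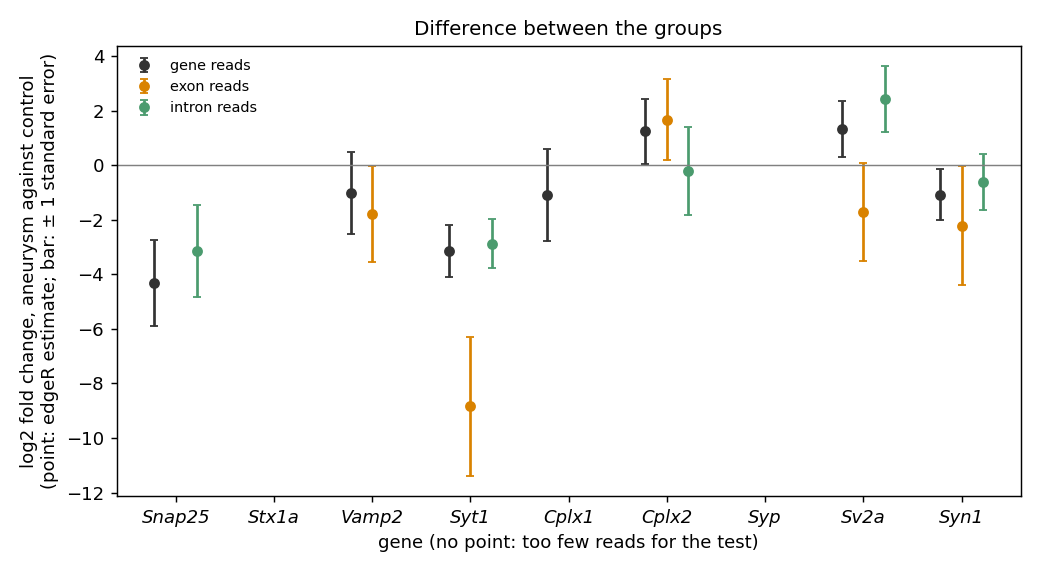
Log2 fold change between aneurysm and control from edgeR for gene, exon and intron reads (points) with 1 standard error on each side (bars); genes with no point had too few reads for the test. Syt1 lies below 0 for all 3 kinds of read, from -8.84 (exon) to -2.87 (intron), and the signs of Cplx2 and Sv2a depend on the kind of read.

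The test on exon reads alone covered fewer genes. Of the 9 genes, 5 passed the filter on exon reads (Syt1, Syn1, Vamp2, Cplx2 and Sv2a) and 0 passed an adjusted p of 0.05 in edgeR, which 0.539% of the 2969 genes tested did. Syt1 was the 1 with an unadjusted p under 0.05, against 1.75% of all genes tested that were lower at this level, and DESeq2 on exon reads called Syt1 as well (1.38% of all genes tested). Syt1 had passed this filter through the controls alone, so that neither result is independent support. The log2 fold changes of Syn1, at -2.21, and of Vamp2, at -1.78, were about the size of their errors (standard errors 2.18 and 1.78). Without aneurysm 8, which held 27 of the 29 aneurysm exon reads of Syn1, the value of Syn1 was -7.72, and without aneurysm 6 that of Vamp2 was -3.22, and neither passed the adjusted threshold in edgeR. In intron reads, 5 genes passed the filter and 0 were called, as were 0.0% of the 5459 genes tested, while Syt1 had an unadjusted p under 0.05 and the other 4 did not (2.64% of all genes tested were lower at this level).

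Levels were compared between genes as exon CPM per kilobase of exon. In the controls the order of the means was Vamp2 (27.8 ± 18.6, SD, n = 5), Cplx1 (26.8 ± 23.1), Snap25 (24.1 ± 19.3), Syt1 (15.8 ± 16.7), Sv2a (13.5 ± 9.50), Cplx2 (11.5 ± 14.0) and Syn1 (10.4 ± 11.1), with Stx1a and Syp at 0. The distance between any neighbours from Vamp2 to Syn1 was less than their SD, so that this order is not resolved. In the aneurysms Cplx2 had the highest mean, 37.1 ± 64.1 (SD, n = 5), with 150.6 in aneurysm 8 and a median of 11.2, and Vamp2 followed with 8.02 ± 12.2.

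Intron reads made up 69.2% of all reads of the 9 genes in the aneurysms and 61.4% in the controls, with 54.0% to 94.2% in single aneurysms and 42.7% to 94.9% in single controls. The groups overlapped, and the highest share belonged to control 7. Over all genes the share was 35.7% to 49.8% in the aneurysms and 32.8% to 47.1% in the controls. For Snap25 the share was 46.8% in the controls and 100% in the aneurysms, for Cplx1 0.778% and 100%, and for Syn1 79.1% and 97.5%. For Cplx2 it was 54.7% and 22.8%, with 156 of the 289 control intron reads in control 7 and 178 of the 200 aneurysm intron reads in aneurysm 6. These shares were not tested. Reads across exon junctions were found only for Snap25, Syt1 and Cplx2. Vamp2 had 0 among its 996 exon reads and Sv2a 0 among 1147.

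The rest of the pathway was read from lists of SNARE regulators, vesicle membrane proteins, active zone scaffolds, transmitter transporters and vesicle endocytosis genes, 56 genes in all with no release gene of the 9 among them. Of these, 38 had enough gene reads, and 0 were called by edgeR in either direction. At an unadjusted p under 0.05, 5 were lower (Syn2, Sv2c, Ppfia2, Nrxn3 and Dnajc6) and 0 were higher, where 2.43% of all genes tested were lower at this level. The median log2 fold change was -0.69, beside -1.07 for the 7 release genes tested and 0.13 for all genes tested. The lists here and below were chosen with earlier results of these data known. Their counts beside the share of all genes are therefore no independent support. Sv2c and Ppfia2 were named after their values were seen. Syn2, the paralog of Syn1, had 63, 638, 573, 62 and 507 gene reads in controls 4 to 8 and 176, 151, 120, 1 and 9 in aneurysms 4 to 8 (log2 fold change -3.10, standard error 1.09, edgeR adjusted p = 0.526), with controls 4 and 7 within the range of the aneurysms in CPM.

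Among the 10 SNARE regulators tested, 9 had a log2 fold change below 0, where 45.8% of all genes tested did, and the median was -0.69. Of these 10, 0 had an unadjusted p under 0.05 in edgeR. Nsf, the ATPase that takes spent SNARE complexes apart, had 79 to 595 gene reads in the controls and 4 to 580 in the aneurysms. For the active zone list the median was -0.84 over 9 genes, and its member Nrxn3, a presynaptic adhesion gene, was at -1.78 (standard error 0.82, edgeR adjusted p = 0.821). For the endocytosis list the median was 0.06 over 9 genes, of which Dnajc6, the clathrin-uncoating cofactor auxilin, was at -2.75 (standard error 1.01, edgeR adjusted p = 0.553). The vesicular transmitter transporters, which fill the vesicles, had too few reads for the test in every case, the most being 64 gene reads of the monoamine transporter Slc18a2 in control 6.

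Widely expressed paralogs of the release genes, which carry out fusion in cells of all kinds, gave a median log2 fold change of -0.41 over the 7 of 12 genes that had enough reads. None had an unadjusted p under 0.05 in edgeR. Snap29, a paralog of Snap25, had 95, 214, 168, 426 and 44 gene reads in controls 4 to 8 and 534, 221, 431, 129 and 1 in aneurysms 4 to 8, and Vamp3, a paralog of Vamp2, had 17, 2, 48, 103 and 5 and 16, 308, 485, 18 and 1. Neither pair of groups was separated, and the difference between the release genes and these paralogs was not tested.

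Neuron markers outside the vesicle included genes that passed the test. All 11 markers tested had log2 fold changes below 0 (median -3.74), and 2 of them fell at an adjusted p under 0.05, against 0.0394% of all genes tested that were lower at this level. These were Snhg11, a neuronal long noncoding RNA (log2 fold change -10.64, standard error 1.34, edgeR adjusted p = 1.05e-04), and Camk2b, a neuronal calmodulin kinase subunit (-7.28, standard error 1.49, edgeR adjusted p = 0.0325). The list was chosen with earlier results of these data known. Both calls within it, and their share beside that of all genes, are therefore no independent support. Snhg11 had 606, 501, 398, 170 and 658 gene reads in controls 4 to 8 and 1, 1, 0, 0 and 0 in aneurysms 4 to 8. Control 7, which had 0 exon reads of Snap25, Cplx1, Cplx2, Sv2a and Syn1, thus held Snhg11, and it held 224 gene reads of Camk2b. The summed CPM of the neuron list ranged on gene reads from 226 to 1514 in the controls and from 60.7 to 307 in the aneurysms, which overlapped, and on exon reads from 363 to 2496 and from 33.5 to 263, which did not.

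Markers of other cell types were read in the same way. The astrocyte markers summed on gene reads to 485 to 1008 CPM in the controls and 5.54 to 282 CPM in the aneurysms, without overlap, and on exon reads to 75.4 to 1025 CPM and 1.34 to 172 CPM, with overlap. Slc1a3, the astrocyte glutamate transporter, had 1216 to 2819 gene reads in the controls, against 5 to 1394. Of the 5 astrocyte markers tested, 0 were called and 2 had an unadjusted p under 0.05, both lower (Slc1a3 and Aldoc, the latter named after its value was seen), where 2.43% of all genes tested were lower at this level. The macrophage markers summed to 19.7 to 125 CPM in the controls and 78.3 to 5989 CPM in the aneurysms, with overlap. All 5 tested had a log2 fold change above 0, and Lyz2 (lysozyme) was the 1 called higher (edgeR adjusted p = 0.0325). The arterial wall markers summed to 568 to 1137 CPM and 650 to 16697 CPM, which also overlapped. Of the 7 tested, 4 had a log2 fold change above 0, and Col1a1, a fibrillar collagen gene, was the 1 called higher (edgeR adjusted p = 0.0325). The groups overlapped for Lyz2 and for Col1a1, and 9 of all 7615 genes tested were called higher. The part of these differences in cell markers in the results for Snap25, Syt1 and Cplx1 was not tested.

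For genes of perivascular nerves, too few samples held enough reads for the test. Th, which encodes the rate-limiting enzyme of noradrenaline synthesis and defines sympathetic fibres, was at 0 in all 10 samples, as was the vasodilator neuropeptide gene Vip. Npy, a sympathetic neuropeptide, had 0 reads in every control and 0, 511, 287, 1063 and 4 gene reads in aneurysms 4 to 8, whereas Tac1, the substance P precursor of sensory fibres, had 56, 32, 98, 2 and 268 in controls 4 to 8 and 10, 0, 0, 0 and 0 in aneurysms 4 to 8. Aneurysms 5, 6 and 7, which held nearly all Npy reads, had 0 exon reads of Snap25 and 0 to 2 of Syt1, and aneurysms 4 and 8 lay in the same range. Exon reads of Vamp2 in aneurysms 5, 6 and 7 were 34, 326 and 68, and those of Sv2a were 200, 337 and 9. A relation of the release genes to Npy was not tested. Of the oligodendrocyte and Schwann cell markers, 2 had enough reads, Mbp and Pmp22, with log2 fold changes of 0.54 and 3.02 and with 0 calls in edgeR.

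The genes whose profile over the 10 samples was most like the mean profile of the 7 release genes tested were found by the root-mean-square difference of centred log2 CPM. The closest were Akap6 (0.80), Epha3 (0.82), Sdcbp2 (0.83), Hsp90aa1 (0.94), LOC103690068 (0.95) and Ascc3 (1.01), where the median of all other genes was 2.64. The release genes themselves lay at 1.50 (Syn1) to 2.11 (Syt1) from their mean. The mean profile was highest in control 8 and control 6 and lowest in aneurysm 5 and aneurysm 7, with control 7 between aneurysms 7 and 4 and with aneurysm 6 above the other aneurysms. Akap6, an anchoring protein of protein kinase A, had 536, 277, 235, 262 and 361 gene reads in controls 4 to 8 and 78, 45, 114, 29 and 25 in aneurysms 4 to 8.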

How the data were processed

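The authors purified RNA of rupture-prone aneurysms and of the remaining circle of Willis with a fibrous tissue kit, made stranded mRNA libraries, sequenced paired 75-base reads and mapped them in CLC genomics workbench (version 11) to the rat assembly Rnor6. Not given in the sources used here are the treatment of strand and duplicates and the annotation. The deposited table holds, for each gene and sample, counts of reads in the gene, in exons, in introns and across exon junctions, which the authors did not normalize. Its normalized and transformed columns and the comparison of the authors (fold change, p-value and FDR for each gene) were not used.

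Groups and numbers came from the titles. The paper takes both tissues from the same animal, but no source ties a number to an animal or calls the samples of a group separate animals. All p-values therefore refer to the spread between these samples. Samples of a group differed by more than sampling noise in every pair (chi-square per degree of freedom at least 43.2). Intervals and floors cover counting error only and take reads as independent, which was not tested.

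The counts were fitted with edgeR (4.0.16) in R (4.3.3), with DESeq2 (1.42.0) and limma (3.58.1) as alternatives. Python (3.11.15) served for the other steps, with scipy (1.17.1), pandas (2.3.3), numpy (2.4.6) and matplotlib (3.10.9). Genes with low counts were removed by filterByExpr (minimum count 10), libraries were scaled by TMM, and edgeR's quasi-likelihood test was used with Benjamini-Hochberg adjustment over all genes tested (7615 for gene reads, 2969 for exon reads and 5459 for intron reads). The standard errors given were derived from this test, as the absolute log2 fold change divided by the square root of its F statistic. Log2 CPM profiles used a prior count of 2. For ranks of CPM, the two-sided exact permutation test ran over every split into 5 and 5 samples. The fit was tested on simulated counts.

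Named were the release genes, the up to 4 genes of each list with the most gene reads, the 6 genes with the closest profile, and list genes past the threshold, of which the text gives a part and some are not reported here. The members and lists were chosen with earlier results of these data known. Alternatives covered DESeq2, other scalings, no filter, a block for the sample number, other tests, unique reads, leaving out samples, and leaving out AABR07000398.1 with the mitochondrial genes. Promoter windows came from RefSeq (GRCr8) and were not placed on Rnor6.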

Additional observations from a re-analysis of the deposited data

Results flagged for a closer look

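Among the 18 sets of 5 samples formed by the 9 genes and both groups, 7 had a sample that lay far from the other 4 (gap to the nearest sample over 0.71 of the whole range), a limit that chance passes in about 1 set in 20 for normally distributed values. These unlogged CPM, with sets of zeros among them, were not shown to be so distributed. In aneurysm 6, Vamp2 was at 58.8 CPM of gene reads (the other aneurysms 0 to 13.7) and Cplx1 at 66.2 CPM (0 to 0.791). In aneurysm 7, Snap25 was at 8.88 CPM (0.0923 to 2.37) and Stx1a at 11.9 CPM (0 to 1.29). Among the controls, Syt1 was at 425 CPM in control 8 (94.0 to 185 in the others), Stx1a at 10.4 CPM in control 6 (0 to 1.41) and Syp at 8.04 CPM in control 5 (0 in each of the others). The reads of Vamp2 in aneurysm 6 and of Stx1a in aneurysm 7 lay in exons, while those of Cplx1 in aneurysm 6, of Snap25 in aneurysm 7 and of Syp in control 5 lay wholly in introns.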

How the results depend on the processing

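With gene reads, 0 of the 7 release genes tested were called in edgeR, and 2 (Snap25 and Syt1) with DESeq2; the other alternatives gave 0. The count of all genes called was 12 and moved to 130 with DESeq2, 2 with upper-quartile scaling, 2 with library size only, 130 with no filter, 34 with edgeR's exact test and 24 without both samples numbered 8, and leaving out 1 sample gave 1 to 33. With exon reads, 0 of 5 release genes were called, 1 (Syt1) with DESeq2 and 3 without control 7 and aneurysm 8, both settings chosen after the data were seen. Control 7 had 0 exon reads of Snap25 and Cplx1, so that leaving it out drew on the outcome and supports no call. Leaving out 1 sample gave 0 to 1. The gene was Cplx1, without aneurysm 8 (38 of all 4084 genes tested were called) and without control 7 (14 of 3670). Cplx1 had 0 exon reads in each aneurysm and passed the filter through the controls alone, so that neither call is support. All genes called on exon reads numbered 16, then 30 with no filter, 41 with DESeq2 and 35 without control 7 and aneurysm 8, and leaving out 1 sample gave 11 to 38.

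The log2 fold change of Cplx2 on gene reads was 1.24 and turned to -1.49 with limma-voom, to -0.82 with the replicate block and to -0.13 without aneurysm 8 (range over single samples left out -0.13 to 1.82). On exon reads it was 1.68 and turned to -0.74 without control 7 and aneurysm 8 and to -0.37 without aneurysm 8 (range -0.37 to 2.73). No other release gene changed its direction. The count of release genes whose groups did not overlap was 1 and became 1 to 2 when 1 sample was left out. In CPM of gene reads, Snap25 joined Syt1 without control 7 and Syn1 did without aneurysm 4. With fewer samples a lack of overlap is easier to reach for any gene. The share over all genes is not given for these settings, so that these counts support no separation. With 1 sample left out, the intron share was 59.0% to 78.1% in the aneurysms and 56.1% to 66.6% in the controls. The cause of these changes was not tested.

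The deviations of samples of the same number correlated at -0.024 to 0.14, highest for number 8, and 2 of the 5 aneurysms correlated best with the control of their own number. Aneurysm 8 and control 8 each had the lowest scaling factor of their group (0.282 and 0.759). So few correlations cannot show whether samples of the same number share an animal. The numbers were not taken as pairs because no source ties a number to an animal. With the replicate block, 0 release genes were called on gene reads (Syt1 -4.43, edgeR adjusted p = 0.0856) and on exon reads (Syt1 -8.22, edgeR adjusted p = 0.505), and all genes called on exon reads numbered 5.

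A spread between samples of the same group with a biological coefficient of variation of 1.38 on gene reads limits what 5 against 5 samples can show.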
